A study of Mus musculus with 10 samples.

Results

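The proteasome is the protease complex that degrades proteins tagged with ubiquitin. Its genes were taken here as the rows of the authors' deposited table whose symbol begins with Psm, a letter from a to g and a digit. The rule found 50 of 24421 genes. All 50 matched the RefSeq annotation of GRCm38.p6 and lay on 16 chromosomes. The data came from poly(A)-selected RNA of whole olfactory epithelium, the sensory tissue of the nose, from untreated mice of the C57BL/6 background at 6 months of age. The groups were 4 mice with the genotype Apoe3 and 6 with the genotype Apoe4, named for human alleles of the lipid carrier apolipoprotein E. The labels give neither sex nor how the alleles were introduced.

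The 20S core is a barrel of 4 stacked rings, in which the alpha subunits (Psma genes) form the outer gates and the beta subunits (Psmb genes) the inner rings that hold the protease sites. The 19S cap sits on the ends of the barrel. Its ATPases (Psmc genes) unfold the substrate and thread it inward, while its non-ATPases (Psmd genes) bind ubiquitin chains and cut them off. Interferon replaces the catalytic beta subunits with Psmb8, Psmb9 and Psmb10, which form the immunoproteasome. Neurons and supporting cells of the olfactory epithelium, like other cells, need the complex to clear damaged proteins, and the factor NRF1 (gene Nfe2l1) raises transcription of its subunits when its activity is short.

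Of the 50 genes, 48 passed the authors' filter on low means. The other two were Psmb11, the beta subunit of the thymus, with a mean normalized count of 0.352 in the authors' deposited table, and Psma8, an alpha subunit of the testis, with a mean of 1.74 there. The rule also took in 2 genes that are no subunit of the lists below. Psmc3ip codes for a partner of meiotic recombination, and stood at a log2 fold change of -0.10 (standard error 0.09) in the authors' deposited table. Psme2b is a second copy of the activator gene Psme2, and stood at -0.00 (standard error 0.11) in the authors' deposited table. Reads of that pair could have been split or dropped in counting. Values per library were not used here, because the table holds a mean over all 10 libraries and 1 fold change per gene; no gene could be checked library by library.

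No proteasome gene passed the test between Apoe4 and Apoe3. By the authors' DESeq2 test 0 of the 48 tested genes had an adjusted p under 0.05, beside 125 of all 16050 tested genes, or 0.779% (0.455% lower and 0.324% higher). With genes of low mean kept, with X and Y genes left out, or at an adjusted p under 0.10, the count was again 0, beside 0.563%, 0.715% and 1.06% of all genes. The values nevertheless lay mostly on one side: 41 of the 48 had a negative log2 fold change, lower in Apoe4, against 48.9% of all tested genes, and 7 a positive one, against 51.1%. Their median was -0.11, beside 0.00 over all tested genes. At an unadjusted p under 0.05, 12 of the 48 were lower and 0 higher, beside 10.3% of all tested genes, 5.76% lower and 4.54% higher. The median transcript length was 1409 bases for the 48 genes and 2981 for all tested genes, and fold change went with length among all genes. The counts with a length curve removed are given after the values of the single genes.

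Depth per library, recovered approximately from genes with 1 read, ran from about 14938522 to 20105203 assigned reads. The groups also differed in genes of the sex chromosomes. The Y-linked genes, 4 of 4 tested, had lower levels in Apoe4 (log2 fold changes from -3.72 to -2.80), and Xist stood at 6.41 with no p-value in the authors' deposited table, so genotype and sex composition cannot be told apart here. The 1 proteasome gene on the X chromosome, Psmd10, stood at 0.04 in the authors' deposited table. Mouse Apoe had a log2 fold change of -0.16 (standard error 0.10, DESeq2 adjusted p = 0.579) in that table; this does not check the labels, because transcripts of a human allele may be counted poorly against the mouse gene. The tissue's defining markers were present: the neuronal marker Omp had a mean of 113676 and the supporting cell enzyme Cyp2g1 a mean of 63585 in the authors' deposited table. In whole tissue, fewer cells of a type and less RNA per cell cannot be told apart.

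Promoters of subunit genes are shown, to let the letters be set beside the values, for the core members with the smallest p that had an entry in the RefSeq promoter table of GRCm38.p6, Psmb3 and Psmd14, and for Psmb5, whose gene codes for the chymotrypsin-like site and whose promoter holds the antioxidant response core; Psmb5 was added after the motif counts were seen. Psmb1 and Psmb2 had no entry. Each sequence is the 250 bases before the transcription start, 5′ to 3′ on the gene's strand. Capitals mark CCAAT and a pair of TTTC blocks separated by 2 bases in Psmb3, CCAAT read on the other strand in Psmd14, and TGACNNNGC in Psmb5.
Psmb3 (chr11:97703184-97703433, plus strand): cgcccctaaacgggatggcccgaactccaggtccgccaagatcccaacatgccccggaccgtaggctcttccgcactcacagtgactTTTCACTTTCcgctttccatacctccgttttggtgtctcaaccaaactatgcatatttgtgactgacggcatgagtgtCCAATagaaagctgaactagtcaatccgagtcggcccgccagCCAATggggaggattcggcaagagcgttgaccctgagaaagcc
Psmd14 (chr2:61711444-61711693, plus strand): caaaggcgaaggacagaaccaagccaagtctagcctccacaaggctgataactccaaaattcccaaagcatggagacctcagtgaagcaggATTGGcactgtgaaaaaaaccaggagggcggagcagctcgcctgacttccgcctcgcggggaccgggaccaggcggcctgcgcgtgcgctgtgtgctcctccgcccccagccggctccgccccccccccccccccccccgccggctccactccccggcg
Psmb5 (chr14:54617996-54618245, minus strand): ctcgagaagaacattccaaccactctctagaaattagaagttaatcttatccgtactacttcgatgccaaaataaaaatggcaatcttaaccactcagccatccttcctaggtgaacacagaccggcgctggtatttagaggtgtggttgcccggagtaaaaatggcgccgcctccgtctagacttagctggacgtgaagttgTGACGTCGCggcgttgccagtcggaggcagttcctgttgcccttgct

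Motifs were counted on both strands in windows of 300 bases, 250 before and 50 after the start; 42 member genes had 45 such windows. TGACNNNGC, the core to which NRF1 and NRF2 bind with small Maf proteins, was in 6 of the 45 windows (13.3%), beside 12.4% of all 32851 windows. These were the windows of Psmb5, Psmb6, Psmc6, Psmd9, Psmd12 and Psme4. The looser TGANNNNGC, which contains every match of the former, was in 26 windows (57.8%), beside 41.3% of all. CCAAT, the box bound by NF-Y, was in 15 (33.3%), beside 37.4% of all. The pair of TTTC blocks with any 2 bases between, a repeat found in interferon response elements, was in 5 (11.1%), those of Psmb3, Psmd4, Psmd9, Psme1 and Psmg4, beside 3.44% of all. TATAAA was in 4 (8.89%), beside 13.6% of all. A match is a description of the letters and not a binding site.

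Constitutive subunits were abundant, and their levels per length lay within one order of magnitude. Levels are the authors' mean normalized counts over all 10 libraries, divided here by the length of the principal transcript in kb (GENCODE vM21). They have no error over libraries. The 14 constitutive 20S genes had a median of 1827 normalized counts per kb and spanned 722 for Psma2 to 2760 for Psmb6. The 17 genes of the 19S ATPases and non-ATPases had a median of 1123 per kb and spanned 380 for Psmd11 to 2235 for Psmc5. All tested genes together had a median of 140 per kb.

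The highest and lowest members of each particle part were as follows. Among alpha subunits Psma7 was highest, at 2604 normalized counts per kb, and Psma2 lowest. Among beta subunits Psmb6, the caspase-like site, was highest, and Psmb2, a subunit without a protease site, lowest at 1370 per kb. Among ATPases the level per kb of Psmc6 was lowest, at 1007. Among the non-ATPases Psmd2, a large scaffold subunit that docks ubiquitin shuttles, was highest at 1667 per kb. The order depends on the transcript length assumed: highest over lowest was 3.82 for the 20S genes by principal transcript and 2.26 by coding length, and 5.88 and 2.83 for the 19S genes.

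Assembly chaperones and the inhibitor were present at lower levels per length than the constitutive subunits, while the activators overlapped with them. The 20S assembly chaperones Psmg1 to Psmg4, which guide the alpha ring together, lay between 197 and 305 normalized counts per kb. The 19S assembly chaperones Psmd5, Psmd9 and Psmd10 lay between 176 and 238. Activators differed among themselves: Psme1 and Psme2, which form the interferon-induced cap, had 776 and 895 per kb, the nuclear activator Psme3 had 671, and Psme4, the large single-chain activator, had 440. The inhibitor Psmf1 had 220 per kb.

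**Figure D1:**
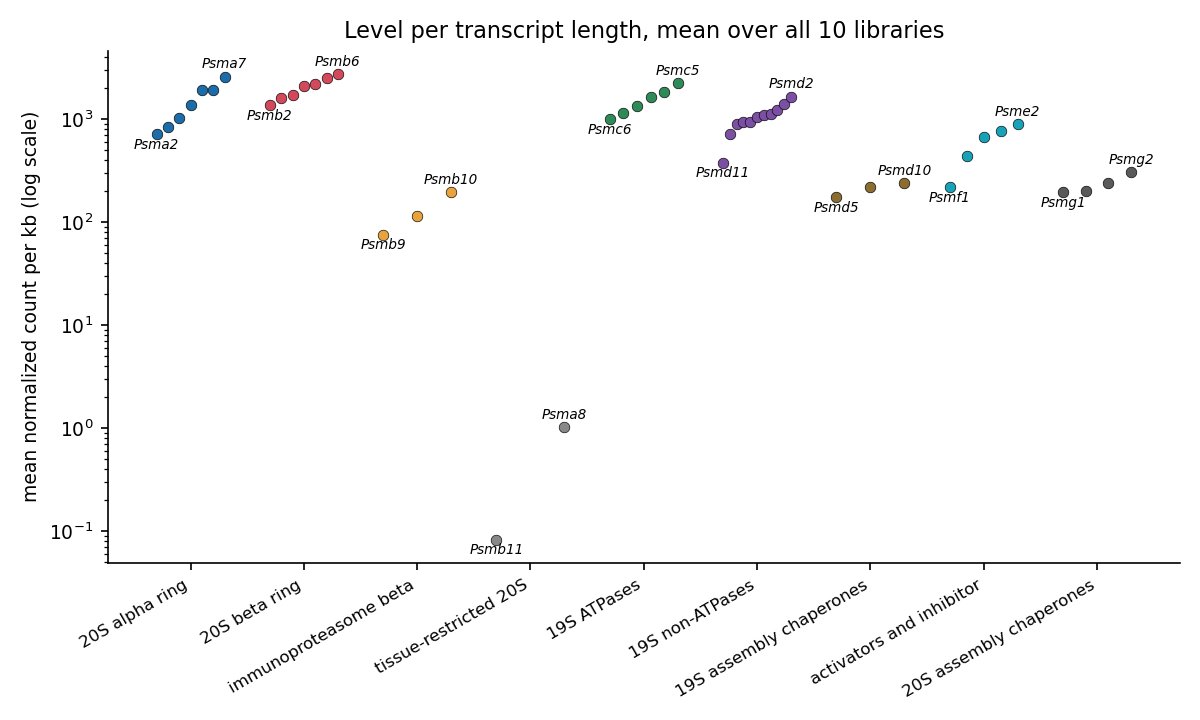
Mean normalized count per kb of principal transcript (log scale, over all 10 libraries) for each proteasome gene, by role; each point is a gene, and the lowest and highest of each list are named. Constitutive 20S and 19S subunits lie between 380 and 2760 per kb, the 3 immunoproteasome subunits between 75.9 and 197, and the thymus and testis forms near or under 1.

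The inducible catalytic subunits were scarce beside the subunits they replace. Psmb8 had 116 normalized counts per kb against 1734 for Psmb5, a ratio of 15.0 in favour of the constitutive form. Psmb9 had 75.9 against 2760 for Psmb6, a ratio of 36.4. Psmb10 had 197 against 2539 for Psmb7, the trypsin-like site, a ratio of 12.9. By coding length these ratios were 8.65, 19.8 and 11.2, and by the longest transcript 17.6, 64.1 and 5.24. The constitutive form was the higher one under each of these lengths, while the size of the ratio depended on the length used.

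The beta ring had the lowest median log2 fold change of the 4 parts of the constitutive particle. All 7 of its genes were negative, with a median of -0.19, and 0 passed the test (4 at an unadjusted p under 0.05). Psmb1 (chromosome 17, 15475721 to 15498276), a structural subunit next to the catalytic ones, had the smallest p of all proteasome genes: its log2 fold change was -0.23 (standard error 0.08, DESeq2 adjusted p = 0.171) in the authors' deposited table. Psmb3 (chromosome 11, 97703434 to 97713500) stood at -0.22 (standard error 0.08, adjusted p = 0.304) and Psmb2 (chromosome 4, 126677637 to 126709715) at -0.20 (standard error 0.08, adjusted p = 0.329) in the authors' deposited table. These 3 subunits carry no protease site.

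The catalytic subunits of the ring stood, by the authors' deposited table, at -0.18 for Psmb5, -0.15 for Psmb6 and -0.09 for Psmb7 (adjusted p = 0.497, 0.557 and 0.730). Their errors were 0.10, 0.09 and 0.08, so the 3 values lie within about 1 error of each other. The folds in the authors' deposited table appear shrunk towards 0, and undoing this approximately gave -0.28 for Psmb1, with a 95% interval from -0.46 to -0.10, and -0.26 for Psmb5, with an interval from -0.52 to 0.01.

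The alpha ring was also negative throughout, 7 of 7 genes, with a median of -0.13, 0 past the test and 2 at an unadjusted p under 0.05. Psma2 (chromosome 13, 14613242 to 14625673) stood lowest at -0.19 (standard error 0.08, adjusted p = 0.338), followed by Psma7 at -0.18 (standard error 0.09, adjusted p = 0.466), in the authors' deposited table. Psma4 stood nearest to 0 at -0.08 (standard error 0.07) in that table.

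The 19S cap lay closer to 0. Of its 6 ATPases 5 were negative, with a median of -0.06 and 0 at an unadjusted p under 0.05. Psmc5 was the exception at 0.03 (standard error 0.06, adjusted p = 0.913) in the authors' deposited table. Of 11 non-ATPases 7 were negative, with a median of -0.08, 0 past the test and 3 at an unadjusted p under 0.05. Psmd14 (chromosome 2, 61711694 to 61800376), the metalloprotease that removes ubiquitin chains, stood at -0.14 (standard error 0.06, adjusted p = 0.332) in the authors' deposited table.

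The other two non-ATPases with such a p were Psmd8 at -0.15 and Psmd4, a ubiquitin receptor, at -0.14 in the authors' deposited table. The large scaffold subunits Psmd1 and Psmd2 stood at 0.04 each, and Psmd3 and Psmd11 at 0.01 each, in the authors' deposited table. Psmc4 and Psmd8 lie on chromosome 7, 8.35 and 9.48 Mb from the start of Apoe; Psmc4 stood at -0.11 (standard error 0.07, adjusted p = 0.591) in the authors' deposited table. As lists, the 14 constitutive 20S genes had a median of -0.17 and the 17 cap genes one of -0.06; the difference between these lists was not tested.

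**Figure D2:**
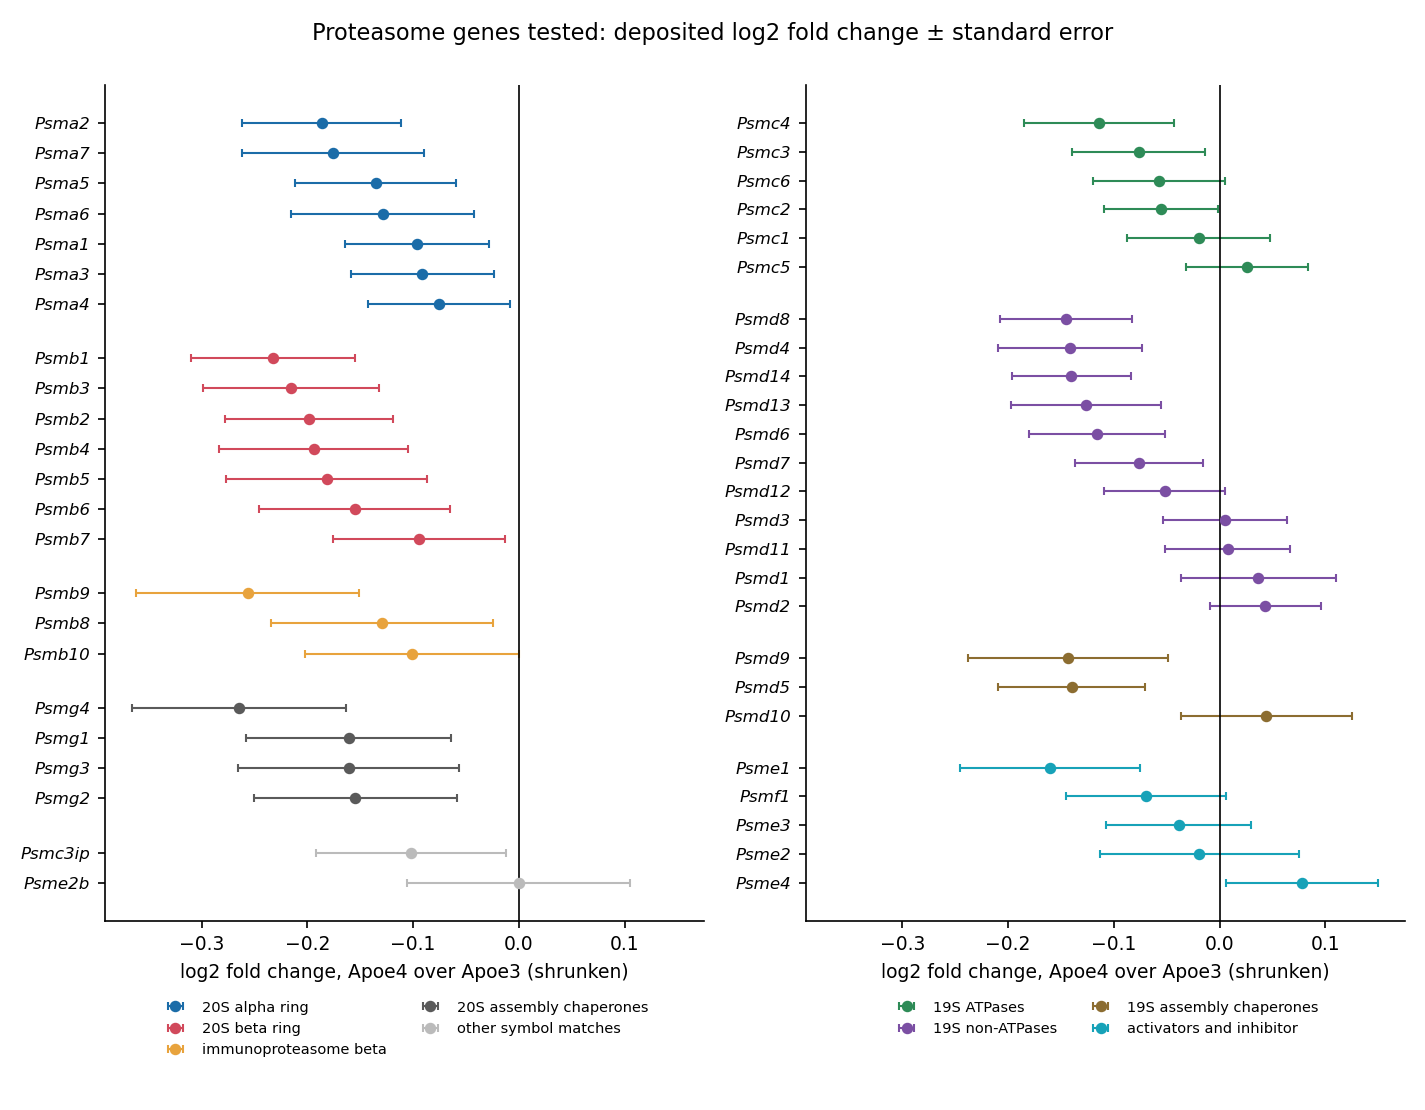
Log2 fold change of Apoe4 over Apoe3 with its standard error, as deposited and shrunken, for the 48 proteasome genes tested (4 and 6 mice), grouped by role. All 14 constitutive 20S genes lie below 0, while 5 of the 17 cap genes lie at or above it; no gene passed an adjusted p under 0.05.

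Immunoproteasome genes did not pass the test. In the authors' deposited table Psmb9 (chromosome 17, 34182030 to 34187330) stood at -0.26 (standard error 0.11, adjusted p = 0.349), Psmb8 (chromosome 17, 34198195 to 34201454) at -0.13 (standard error 0.10, adjusted p = 0.711) and Psmb10 (chromosome 8, 105935728 to 105938392) at -0.10 (standard error 0.10, adjusted p = 0.776). All 3 values were negative and had errors near the ceiling of 0.105 that the shrinkage sets, so these low genes were measured with less precision than the constitutive ones. Psmb8 and Psmb9 lie 16.2 kb apart in the major histocompatibility complex.

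Of 8 genes that load peptides or carry the interferon signal, 0 changed, 1 had an unadjusted p under 0.05, and the median was -0.07. B2m, the light chain of class I molecules, stood at -0.17 (adjusted p = 0.526) by the authors' deposited table. Immune cell markers, which could move with these genes, had 0 of 8 macrophage genes and 0 of 5 tested lymphocyte genes past the test, with medians of -0.05 and -0.10. Their part in the values of the immunoproteasome genes was not tested.

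No assembly factor or regulator passed the authors' DESeq2 test, and Psmd5 and Psmg4 had an unadjusted p under 0.05. All 4 of the 20S assembly chaperones were negative, with a median of -0.16; Psmg4 (chromosome 13, 34162964 to 34178172) was the lowest of all proteasome genes at -0.26 (standard error 0.10, adjusted p = 0.292) in the authors' deposited table. Of the 19S chaperones Psmd5 and Psmd9 stood at -0.14 each and Psmd10 at 0.04 in the authors' deposited table. Psme1 stood at -0.16 (standard error 0.09, adjusted p = 0.504) and its partner Psme2, whose gene lies 5.91 kb away, at -0.02 (standard error 0.09, adjusted p = 0.964) in that table. Psme3 stood at -0.04, Psmf1 at -0.07 and Psme4 at 0.08 in the authors' deposited table, the last being the highest value of any proteasome gene (standard error 0.07, adjusted p = 0.751).

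The precision of the comparison sets approximate limits on the fold change between these samples for most of the genes. An approximate unshrunken fold could be given for 42 of the 48 genes, those with an error below 95% of its ceiling. For all 42 the 95% interval lay within a 1.5-fold change in either direction, and for 18 of them within 1.2-fold. In 10 the interval lay below 0. The lowest bound among the 42 was -0.52, that of Psmb5, and the highest 0.25, that of Psme4. The other 6 tested genes, Psmb8, Psmb9, Psmb10, Psmg3, Psmg4 and Psme2b, have no such interval, so their changes are not bounded here. They include Psmg4 and Psmb9, whose deposited folds were the lowest of the tested proteasome genes (-0.26 each). Intervals of single genes are not adjusted for the number of genes. They rest on the deposited folds with no length curve removed, and do not separate genotype from sex composition. They therefore do not bound an effect of genotype alone.

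Fold change went with transcript length. Among the 15503 tested genes with a length, log2 fold change was higher the longer the principal transcript (Spearman rho = 0.434, across genes, which cannot stand in for replicates), and among those with a mean of at least 500 the rho was 0.561. Among the 31 constitutive subunits of both particles it was 0.578, a description across genes that share the same libraries. The 14 constitutive 20S genes had a median length of 1163 bases, the 17 cap genes one of 1636, and all tested genes one of 2981.

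**Figure D3:**
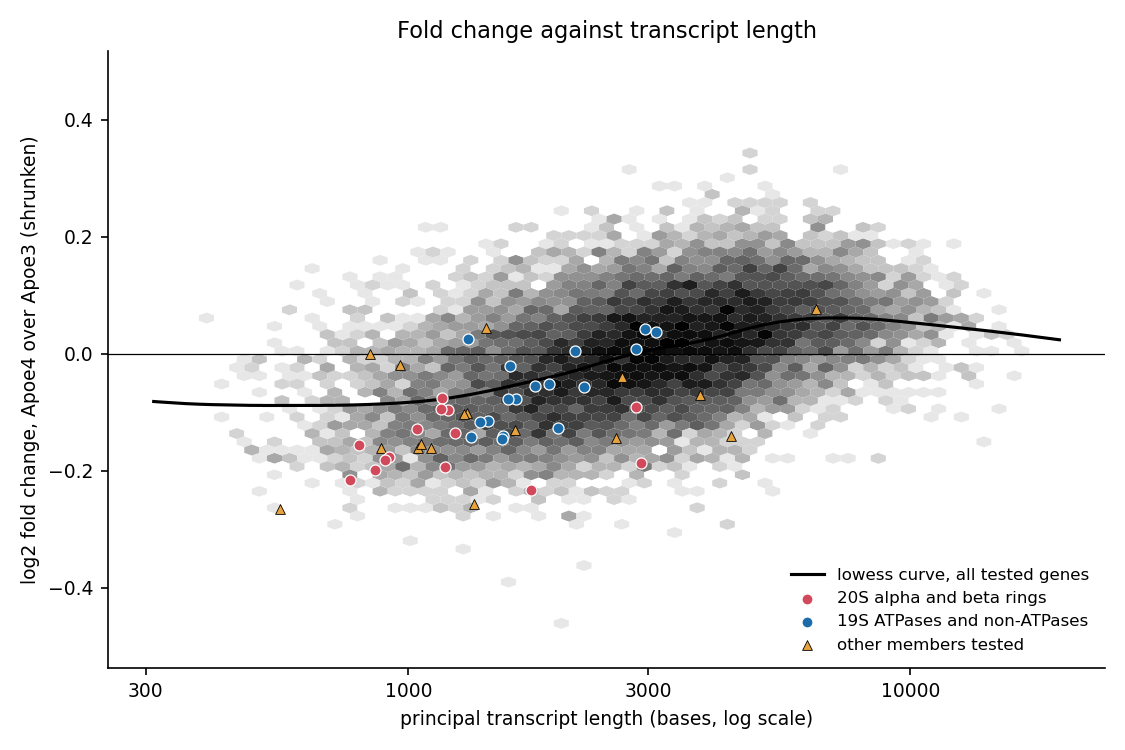
Log2 fold change of Apoe4 over Apoe3 (shrunken) against principal transcript length (bases, log scale). Grey hexagons count tested genes (darker for more, log scale), the line is a lowess curve through them, and coloured points are proteasome genes; most of the 20S genes lie below the curve, at lengths where the curve itself is below 0.

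Subunits were set beside other genes of the same length class with a mean of at least 500; the means were not otherwise matched. In the class under 1000 bases, 325 other genes with a mean of at least 500 centred on a log2 fold change of -0.13 (median), and 90.2% of them were negative; the 5 subunits there, all of the 20S core, had a median of -0.18. From 1000 to under 1500 bases the 486 other genes had a median of -0.11, with 89.9% negative, and the 10 subunits a median of -0.11, with 9 negative. From 1500 to under 2000 bases the medians were -0.07 for 686 other genes and -0.08 for 9 subunits. From 2000 to under 3000 bases they were -0.02 for 1485 other genes and -0.03 for 6 subunits. In each of these classes the median of all subunits lay within the quartiles of the other genes. For the 20S genes alone it lay below the lower quartile from 1500 to under 2000 bases (-0.23, 1 gene). The same held from 2000 to under 3000 bases (-0.14, 2 genes). For the 19S genes alone it lay within the quartiles in each class that held them.

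Some single subunits lay outside the quartiles of their length class, as a fixed share of the other genes does by definition. The genes named next are examples and not a full list. Psmb1, with a transcript of 1758 bases, stood at -0.23 where the middle of the other genes ran from -0.12 to -0.01 (quartiles), and Psma2, at 2911 bases, stood at -0.19 where it ran from -0.07 to 0.03. In the other direction Psmc5, at 1316 bases, stood at 0.03 where it ran from -0.16 to -0.06. These genes were picked after their values were seen. With the length curve removed, Psmb1 stood at -0.19, Psma2 at -0.19 and Psmc5 at 0.10, and 0 of the 48 genes passed an adjusted p under 0.05, beside 0.619% of all genes with a length.

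Removing the curve also left fewer genes at a low p. With the curve over all tested genes subtracted, 3 of 48 had an unadjusted p under 0.05, beside 7.08% of all genes; all 3 were lower, beside 3.39%. Of the 48, 37 were negative, beside 50.3%, and the median was -0.06. With a curve fitted only to genes with a mean of at least 500, an alternative chosen after seeing the data, 38 proteasome genes remained, of which 23 were negative, beside 49.8% of all such genes, with a median of -0.02; 0 had an adjusted p under 0.05, beside 0.516%, and 3 an unadjusted one, beside 5.93%. Under that curve the 20S median was -0.05, with 11 of 14 genes negative, and the 19S median 0.01, with 7 of 17. With the curve over all tested genes they were -0.09, with 13 of 14 negative, and -0.02, with 11 of 17.

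**Figure D4:**
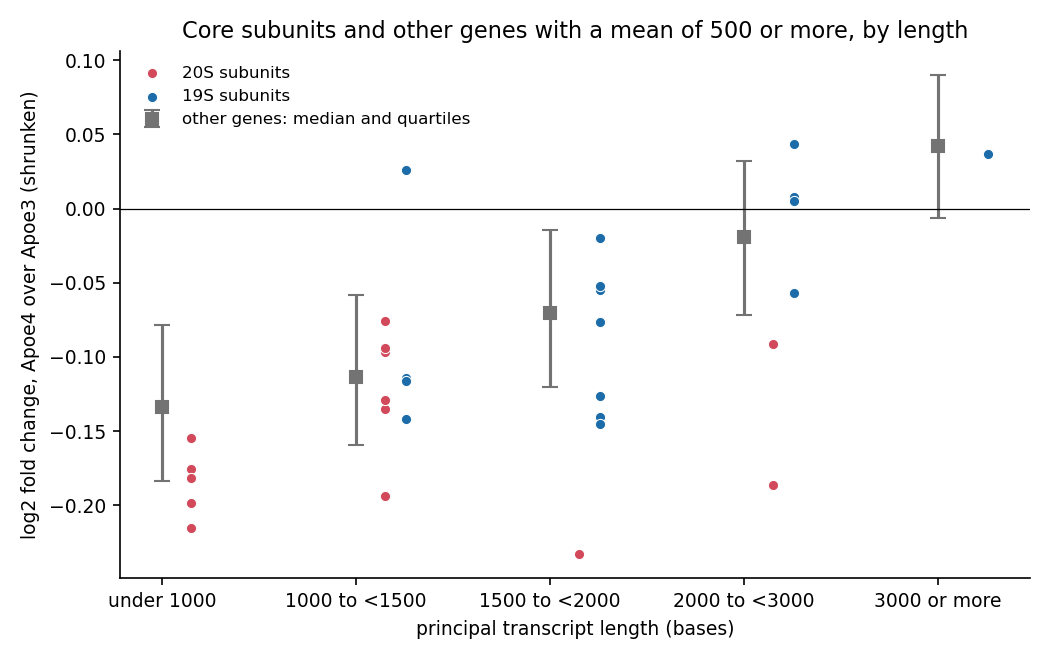
Log2 fold change of Apoe4 over Apoe3 (shrunken) in 5 classes of principal transcript length (bases). Grey squares and bars give the median and quartiles of other genes with a mean of at least 500; red and blue points are single 20S and 19S subunits, most of which fall within or near the quartiles of their class.

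Around the proteasome, 1 gene of the ubiquitin system passed the test. Ubb (chromosome 11, 62551171 to 62553213), a polyubiquitin gene that supplies much of the free ubiquitin of the cell, had a log2 fold change of -0.30 (standard error 0.07, DESeq2 adjusted p = 0.00357) by the authors' deposited table, and so fell. With the length curve over all genes removed it still passed (adjusted p = 0.0439), but not with the curve of genes with a mean of at least 500 (adjusted p = 0.140). Rps27a, which codes for ubiquitin fused to a ribosomal protein, stood at -0.17 (adjusted p = 0.495) by the authors' deposited table, and the activating enzyme Uba1 at 0.06. Of the 6 genes of this list 1 passed the test as lower and 0 as higher, beside 0.455% and 0.324% of all tested genes. By sign 3 were negative and 3 positive, and 2 had an unadjusted p under 0.05, each of them lower.

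Partners named outside the Psm symbols did not pass the test. Of 16 tested genes, among them ubiquitin receptors, shuttles and chaperones of the complex, 0 passed the test, 1 had an unadjusted p under 0.05, 8 were negative, and the median was -0.00. Txnl1, a thioredoxin-like protein bound to the cap, stood at -0.09 (adjusted p = 0.548) by the authors' deposited table. The p97 segregase and its cofactors, which extract substrates for the proteasome, had 0 of 7 past the test, 1 at an unadjusted p under 0.05 and a median of -0.01; Ubxn1 stood at -0.17 (adjusted p = 0.462) and Faf2 at 0.09 (adjusted p = 0.615) by the authors' deposited table.

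Regulators of subunit transcription did not pass either. Of 10 genes that make up or control NRF1 and NRF2, 0 changed, 1 had an unadjusted p under 0.05, and 7 were positive with a median of 0.08. Nfe2l1, which codes for NRF1, stood at 0.15 (standard error 0.06, adjusted p = 0.329) and Nfe2l2, which codes for NRF2, at -0.10 (standard error 0.06, adjusted p = 0.548) in the authors' deposited table.

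Other complexes were set beside the proteasome as a reference. The COP9 signalosome, whose subunits are relatives of the lid of the 19S cap, had 8 of 9 genes negative, a median of -0.10, 0 past the test and 2 at an unadjusted p under 0.05. Cops4 stood at -0.17 (adjusted p = 0.262) and Cops7a at -0.13 (adjusted p = 0.438) by the authors' deposited table. The CCT chaperonin, another ring-shaped complex of the cytosol, had 5 of 8 genes negative, a median of -0.02, 0 past the test and 1 at an unadjusted p under 0.05. Tcp1 stood at -0.11 (adjusted p = 0.464) and Cct3 at -0.04 (adjusted p = 0.810) by the authors' deposited table. The median transcript length was 1817 bases for the COP9 genes and 2418 for the CCT genes. The differences between these lists and the proteasome were not tested.

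**Figure D5:**
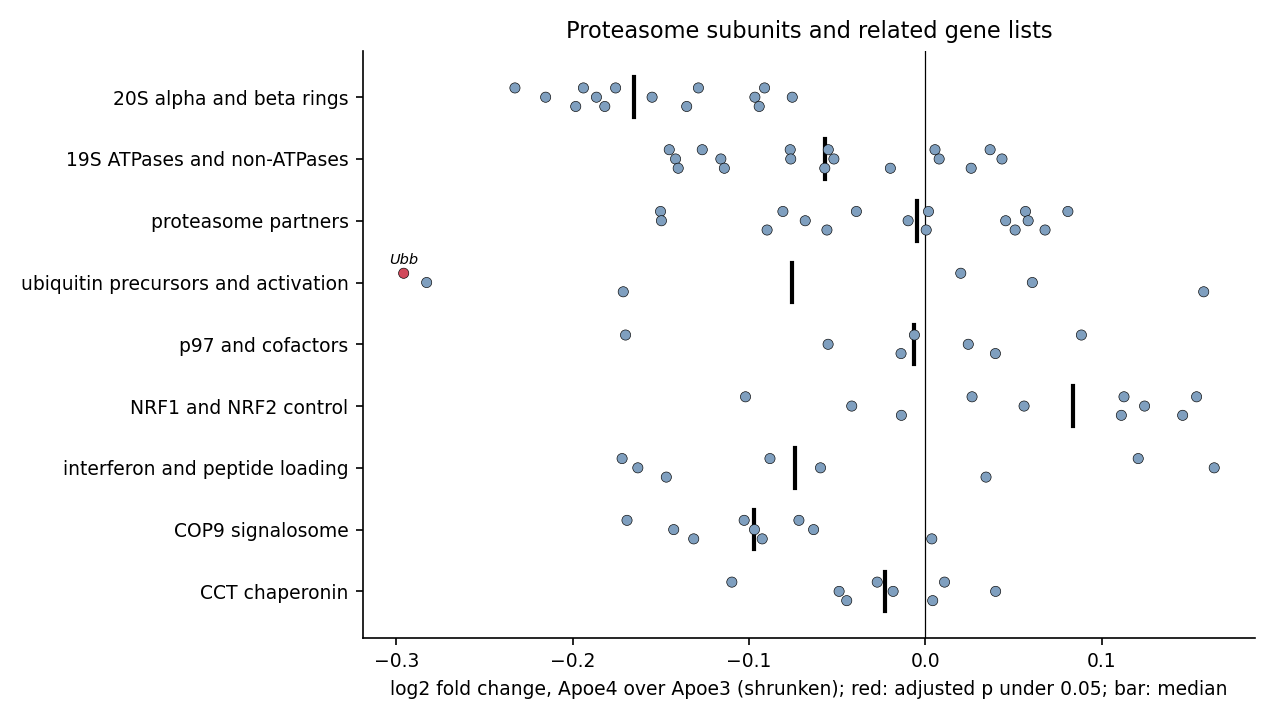
Log2 fold change of Apoe4 over Apoe3 (shrunken) for 20S and 19S subunits and 7 related lists; each point is a tested gene, red where its adjusted p was under 0.05, and bars are medians. Ubb is the 1 gene that passed, and the medians run from -0.17 for the 20S genes to 0.08 for the NRF1 and NRF2 list.

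Markers of the cell types in the tissue gave these values beside the proteasome genes. Of 8 markers of mature olfactory neurons 0 passed the test, with a median of -0.02, and of 4 horizontal basal cell markers 0 passed, with a median of 0.01. Of 6 supporting cell markers 2 fell, Aldh1a7 and Cbr2, and the list had a median of -0.10; with either length curve removed, Aldh1a7 alone of this pair still passed. All 4 tested erythroid markers fell, with a median of -0.26; with the length curve over all genes removed 2 of them, Alas2 and Slc4a1, still passed. Of the other erythroid genes, Hba-a1 and Hbb-bs were listed at 0. Respiratory ciliated cells had 0 of 5 markers past the test and a median of 0.08. Their part in the values of the proteasome genes was not tested.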

How the data were processed

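RNA of 10 libraries was counted by the authors, who deposited 1 table of results per gene; STAR, featureCounts, DESeq2 and the build GRCm38 are named in the submitters' processing notes, with versions, settings, strandedness and annotation not given in the sources used here. Each mean deposited by the authors is a signal, read counts divided by a size factor and averaged over all libraries. The authors' deposited log2 fold changes and errors appear, from the values, shrunk towards 0, with a ceiling of 0.105 on the error. The deposited score is the Wald statistic, and the deposited p-value its two-sided normal p, adjusted by Benjamini-Hochberg over 16050 genes. The planned count test could not be run without values per library, so the authors' own Wald test was used.

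Genes with 1 read in 1 library took 10 mean levels, 6 with positive and 4 with negative folds, so positive folds are higher in Apoe4. These levels also gave size factors, from which depths were approximated. Folds were unshrunk from the ratio of error to ceiling. Principal transcripts came from GENCODE vM21 (a length for 96.6% of tested genes). Length curves were lowess (fraction 0.3, statsmodels 0.14.6, Python 3.11.15). Functions were tested on simulated data. For the unshrinking, these data were built with the same formula. That step therefore checked the code, and not whether the deposited folds were shrunk in this way. Alternatives were no filter on means, X and Y genes left out, a threshold of 0.10, unshrunken folds and length curves. Where nothing says that animals were handled separately, p-values measure only the spread between these samples. Named genes were the 5 with the smallest p in each direction, catalytic and inducible beta subunits, extremes of level, untested members, and the 2 with the smallest p of each related list; other members are given by value to complete each role, and some genes of the related lists are counted but not reported by name here. Members and lists were chosen with earlier results of these data known.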

Additional observations from a re-analysis of the deposited data

How the results depend on the processing

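The count of proteasome genes past an adjusted p of 0.05 was 0 in the authors' test and under all 6 alternatives: no filter on the mean, X and Y genes left out, a threshold of 0.10, and the 3 length curves. Genes at an unadjusted p under 0.05 went from 12 to 3 with the length curve, 4 with lengths of the longest transcript and 3 with the curve of genes with a mean of at least 500. That last curve, which tests 38 of the 48 genes, also moved the negative genes from 41 of 48 to 23 of 38. The median log2 fold change went from -0.11 to -0.022. The alpha ring went from -0.13 to -0.028 and the beta ring from -0.19 to -0.067. The ATPases turned from -0.06 to 0.0060 and the non-ATPases from -0.08 to 0.0053. With the curve over all tested genes the alpha ring stood at -0.06, the beta ring at -0.11, and the ATPases and non-ATPases at -0.02 each. Highest over lowest level per length went from 3.82 to 2.26 (20S) and from 5.88 to 2.83 (19S) by coding length; by the longest transcript Psmb6 over Psmb9 went from 36.4 to 64.1 and Psmb7 over Psmb10 from 12.9 to 5.24. Over 35 named genes, 164 alternative values kept their side of the threshold and 1 did not, Ubb under the curve of genes with a mean of at least 500 (-0.21, adjusted p = 0.140). This count says little about stability. Unshrunken folds kept the deposited adjusted p and so could not change side, and of the named genes only Ubb had passed at the start. The length settings by longest transcript, by coding length and by mean were chosen after seeing the data. Movement was judged against the median deposited error, since no spread between libraries was at hand. No paired analysis was possible because the table holds no values per library; for the same reason no replicate could be left out and no other normalization run. Errors of genes near the ceiling, such as Psmb9, do not separate depth from spread between libraries.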
